A study of Mus musculus with 5 samples.

Results

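A set of 10 genes of plasma cell and secretory fate were followed in germinal centre light zone B cells of mouse spleen with and without a floxed Csk gene, in 5 RNA sequencing libraries. The genes were chosen by name, as regulators and secretory genes of the plasma cell, from a table of 23234 genes. Of the 10 names, 9 were row names of the table, with the J chain gene under its older symbol Igj. Mzb1 was listed under 2010001M09Rik, which RefSeq gives as a synonym of Mzb1 alone, so that all 10 genes had values.

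The Csk(+/+) group held 3 libraries and the Csk(f/f) group 2, which the submitters call biological replicates. Donor B cells of both groups carried ERT2cre, a Cre recombinase switched on by tamoxifen, and B1-8hi, a knock-in immunoglobulin heavy chain that binds the hapten NP. They differed at Csk, which was wild type or floxed and encodes the kinase that restrains Src family kinases downstream of the B cell receptor. The naive CD45.1/2 donor cells were placed in C57BL/6J hosts, which received NP-CGG with alum on day 0 and tamoxifen on days 8 and 9. NP-binding donor light zone cells were sorted on day 11, about 10000 for a library. The hosts kept their own B cells, so each library rests on the sort for donor cells. The age of the mice and the floxed exons are not given in the sources used here, and it is not said whether each library came from 1 mouse or from a pool. The p-values therefore measure the spread between these libraries.

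Plasma cells form when an activated B cell switches on Blimp-1, the repressor encoded by Prdm1, which shuts down the B cell programme. XBP1 then enlarges the endoplasmic reticulum (ER) for antibody secretion, and ELL2 shifts immunoglobulin heavy chain transcripts from the membrane to the secreted form. Light zone germinal centre cells are selected by antigen and T cell help, and a few of them leave as plasma cell precursors.

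Sequencing depth, estimated from the steps between the lowest values, ran from 0.607 to 1.5 times that of Csk(+/+) replicate 1, and 13291 to 14981 genes had a value above 0. Csk, the targeted gene, had 378, 436 and 415 FPKM (fragments scaled by transcript length and library size) in Csk(+/+) and 453 and 476 in Csk(f/f). Its log2 difference was 0.18 ± 0.14 (SE, limma adjusted p = 0.439) as deposited and -0.14 ± 0.16 (adjusted p = 0.846) with a correction for GC content, so the direction turned and neither value passed. Reads from exons that Cre leaves in place count toward these values, and the genotypes are taken from the labels alone. All 12 B and germinal centre cell markers exceeded 1 FPKM in every library, and all 6 light zone markers did so too. The light zone markers summed to 933 to 958 FPKM in Csk(+/+) and 1054 to 1075 in Csk(f/f). Cd83 was the largest part, at 379 to 403 FPKM in Csk(+/+) and 487 to 515 in Csk(f/f). Cd40 was also higher in Csk(f/f), Cd86 and Bcl2a1b were lower, and Nfkbia and Cd72 overlapped. The 6 dark zone markers summed to 291 to 337 FPKM in Csk(+/+) and 252 to 261 in Csk(f/f), and the 11 macrophage markers, 9 of them under 1 FPKM in every library, to 12.4 to 21.5 and 24.6 to 24.7. Of the dark zone markers Cxcr4 overlapped between groups, and the others were lower in both Csk(f/f) libraries. Of the macrophage markers Lyz2 had 6.56, 8.01 and 1.91 FPKM in Csk(+/+) and 12.1 and 10.2 in Csk(f/f), whereas Cd68 overlapped. Emr1 and C1qc, both under 1 FPKM, were higher in Csk(f/f), and the other macrophage markers overlapped. The light zone, dark zone and macrophage sums were each apart between groups, and their part in the results was not tested. Red cell transcripts were present and unequal, the 8 erythroid and platelet markers summing to 195 to 1107 FPKM in Csk(+/+) and 176 to 609 in Csk(f/f). Group differences moved with transcript GC content. Across its deciles the median log2 difference (Csk(f/f) less Csk(+/+)) ran from -0.48 at the low end to 0.31 at the high end. A GC correction that subtracts each library's trend is given beside the log2 differences over all libraries. The FPKM values and marker sums are uncorrected. With the correction Cd86 went from -0.34 to 0.04, Bcl2a1b from -0.34 to 0.002 and Ccnb1 from -0.39 to -0.05. Ccnb2 (-0.50 to -0.45), Cdc20 (-0.25 to -0.49) and Plk1 (-0.27 to -0.52) stayed lower. Cd83 (0.36 to 0.27) and Cd40 (0.27 to 0.35) stayed higher. Csk(+/+) replicate 3 stood apart. Leaving it out moved the genes called from 4 higher and 4 lower to 128 higher and 283 lower. Values without it are therefore given as well for the tested genes of the set, but not for the further lists.

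Levels of the 10 genes fell into a high and a low set. Mzb1, Igj, Xbp1 and Ell2 reached 5 FPKM or more in each library, whereas Prdm1, Creb3l2, Fkbp11, Sdc1, Tnfrsf17 and Cd28 stayed under 1 FPKM in all 5. By mean level over the libraries Mzb1 ranked 175 among the 23234 genes, Igj 828, Xbp1 1007 and Ell2 5605. FPKM is scaled by transcript length, which allows a rough comparison of these levels. The ratios below carry no correction for GC content, which ran from 39.3% (Igj) to 54.0% (Mzb1) in the high set. Mzb1 exceeded Igj by 3.00 to 6.03 times within a library. Ratios of Igj to Xbp1 ran from 0.784 to 1.68. Igj was the higher of them in 3 of 5 libraries, namely every Csk(+/+) library and neither Csk(f/f) library. Xbp1 exceeded Ell2 by 6.20 to 18.6 times, and Ell2 exceeded Sdc1, the highest of the low set, by 8.11 to 31.6 times. Below Sdc1 the ranges of neighbouring genes overlapped.

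**Figure D1:**
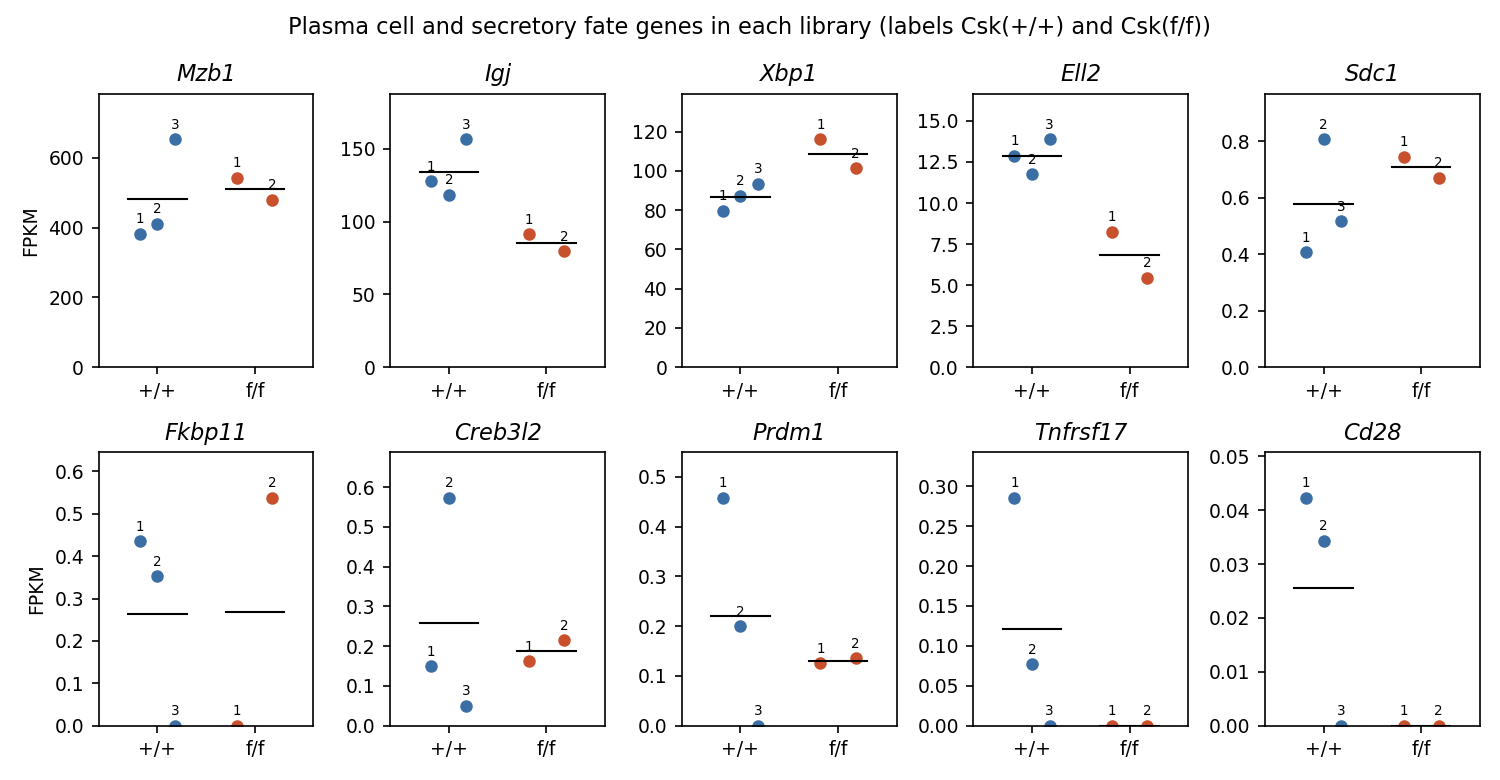
FPKM of each gene (vertical axes, starting at 0 and scaled per gene) in the 3 Csk(+/+) libraries (blue) and the 2 Csk(f/f) libraries (red), with the replicate number beside each point and the group mean as a bar. Groups are apart for Igj, Xbp1 and Ell2, and the other 7 genes overlap.

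Only 4 of the 10 genes, Xbp1, Ell2, Igj and Mzb1, reached 1 FPKM in at least 2 libraries and entered the test. The promoters of the 3 whose groups did not overlap are shown, a choice made from these same data. Igj and Ell2 were the lower genes and Xbp1 was the higher one. Each is the 250 bases before the RefSeq start site on build GRCm38.p6, 5′ to 3′ on the gene's strand. Capitals mark 4 searched words on either strand, namely CCAAT (the CCAAT box), TGACGT (most of a cAMP response element), ACGTG (a core shared by sites of XBP1 and ATF6) and GAAAGT (a core of Blimp-1 and IRF sites). Overlapping matches of TGACGT on both strands were counted separately.
Igj, chr5:88527898-88528147, minus strand: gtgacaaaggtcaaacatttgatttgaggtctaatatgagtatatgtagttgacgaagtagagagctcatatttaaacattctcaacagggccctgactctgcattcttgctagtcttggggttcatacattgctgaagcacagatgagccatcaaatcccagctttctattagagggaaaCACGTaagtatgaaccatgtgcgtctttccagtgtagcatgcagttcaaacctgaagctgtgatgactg
Ell2, chr13:75707234-75707483, plus strand: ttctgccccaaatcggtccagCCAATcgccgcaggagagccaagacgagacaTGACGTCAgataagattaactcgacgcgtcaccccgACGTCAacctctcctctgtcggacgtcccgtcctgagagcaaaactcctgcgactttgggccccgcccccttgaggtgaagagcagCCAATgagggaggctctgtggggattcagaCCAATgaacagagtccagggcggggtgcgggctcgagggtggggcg
Xbp1, chr11:5520391-5520640, plus strand: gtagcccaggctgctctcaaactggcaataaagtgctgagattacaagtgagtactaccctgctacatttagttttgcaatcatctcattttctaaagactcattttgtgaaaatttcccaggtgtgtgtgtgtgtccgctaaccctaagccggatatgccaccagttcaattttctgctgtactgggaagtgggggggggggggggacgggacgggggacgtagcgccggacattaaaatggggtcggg

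The Ell2 promoter held CCAAT at 3 places and TGACGT at 3, of which an overlapping pair forms a full palindrome at -198 to -191 from the start site. The Igj promoter held 1 ACGTG, on the minus strand at -69 to -65. None of the 4 words was found in the Xbp1 window. Among members whose groups overlapped, CCAAT was found at Prdm1, Creb3l2, Fkbp11 and Sdc1, TGACGT at Creb3l2 and GAAAGT at Tnfrsf17. A link between these words and the differences was not tested. Among 32851 RefSeq promoters of this length 33.9% held CCAAT, 6.47% TGACGT, 16.6% ACGTG and 12.3% GAAAGT. GC content of these windows was 42.0% for Igj, 61.2% for Ell2 and 50.4% for Xbp1.

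The main comparison asked how these genes differ in expression between light zone cells of the 2 genotypes. None of the 4 tested genes passed an adjusted p of 0.05 by limma over all 10242 genes tested, where 0.0781% of all genes passed. At an unadjusted p under 0.05 by limma Xbp1 was among the higher genes (8.07% of all genes) and Igj and Ell2 were among the lower genes (13.6% of all genes). Xbp1 was also higher in both Csk(f/f) libraries than in any Csk(+/+) library, as were 20.7% of all genes. Igj and Ell2 were lower in both, as were 24.5%. A two-sided exact permutation test gave p = 0.1 for each of these 3 genes, the smallest value that 3 and 2 libraries allow. In bulk RNA, fewer cells of a type and less RNA in each cell cannot be told apart.

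Xbp1 encodes the transcription factor that drives the secretory and unfolded protein programmes after its transcript is spliced by IRE1. Its level was 79.8, 87.4 and 93.4 FPKM in Csk(+/+) and 116 and 101 in Csk(f/f). Both Csk(f/f) libraries lay above all Csk(+/+) libraries, by a margin smaller than the range within either group. The log2 difference, on the log2(FPKM + 1) scale, was 0.32 ± 0.13 (SE), with 95% limits of 0.01 and 0.63, or a fold of 1.25 (limma adjusted p = 0.223). With the GC correction it was 0.17 ± 0.16 (adjusted p = 0.802), where genes within 1 percentage point of its GC content of 53.0% had a median difference of 0.16 before correction. Without Csk(+/+) replicate 3 it was 0.37 (adjusted p = 0.0800), and with the GC correction as well it was 0.28 (limma adjusted p = 0.256). These values count spliced and unspliced Xbp1 together.

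Ell2 encodes a transcription elongation factor that favours the secreted form of immunoglobulin heavy chain. Its level was 12.9, 11.8 and 13.9 FPKM in Csk(+/+) and 8.25 and 5.44 in Csk(f/f). The Csk(+/+) libraries lay close together and both Csk(f/f) libraries lay under them. The log2 difference was -0.84 ± 0.21 (SE), with 95% limits of -1.32 and -0.36, or a fold of 0.559 (limma adjusted p = 0.154). The GC correction brought it to -0.48 ± 0.17 (adjusted p = 0.491), where genes of like GC content (43.8% in Ell2) had a median of -0.37 before correction. In the corrected fit 0.0692% of all genes passed, and at an unadjusted p under 0.05 Ell2 was the only tested gene of the 4 left, where 4.76% of all genes were lower (4.16% higher). Without Csk(+/+) replicate 3 its difference was -0.79 (adjusted p = 0.0577), and with the GC correction as well it was -0.39 (limma adjusted p = 0.250). Without Csk(f/f) replicate 1 it was -1.10 and without Csk(f/f) replicate 2 it was -0.58.

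Creb3l2, which encodes an ER-bound transcription factor of secretory cells, had 0.149, 0.574 and 0.0498 FPKM in Csk(+/+) and 0.162 and 0.215 in Csk(f/f). Csk(+/+) libraries held both the highest and the lowest value. Scaled for depth, the values stood in the ratio 8 to 38 to 2 in Csk(+/+) and 13 to 7 in Csk(f/f).

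Prdm1, which encodes Blimp-1, was barely detected. Its level was 0.458 and 0.200 FPKM in Csk(+/+) replicates 1 and 2, it was listed at 0 in replicate 3, and it was 0.125 and 0.136 FPKM in Csk(f/f). Both Csk(f/f) values lay inside the Csk(+/+) range. After scaling for depth the values were whole multiples of a common step, within 0.05, and stood for 39 and 21 fragments in the Csk(+/+) libraries and 16 and 7 in Csk(f/f). The exact 95% Poisson interval, which covers counting error only, ran from 0.326 to 0.626 FPKM in Csk(+/+) replicate 1 and from 0.124 to 0.306 in replicate 2. These intervals do not meet, so Csk(+/+) libraries differed from each other by more than counting error. In Csk(f/f) the intervals ran from 0.0717 to 0.204 and from 0.0545 to 0.279 FPKM. Both met that of Csk(+/+) replicate 2 and neither met that of replicate 1. No interval was made for Csk(+/+) replicate 3, where Prdm1 was listed at 0. Csk(+/+) replicate 1 also had the highest value of S100a8, a neutrophil gene (2.45 FPKM, and listed at 0 in the other 4 libraries), and of Cd3d, a T cell gene (0.412 FPKM against 0.00344 to 0.0897). Among neutrophil markers S100a9 and Ngp were also above 0 only there, whereas Elane was above 0 only in Csk(+/+) replicate 2. Cd8a and Bcl11b peaked there too, but Cd4, Cd8b1, Thy1, Tcf7 and the other T cell markers above 0 peaked in other libraries. Thy1 had 1.86, 2.27 and 1.16 FPKM in Csk(+/+) and 3.51 and 4.62 in Csk(f/f). The part of any such cells in the Prdm1 value was not tested.

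**Figure D2:**
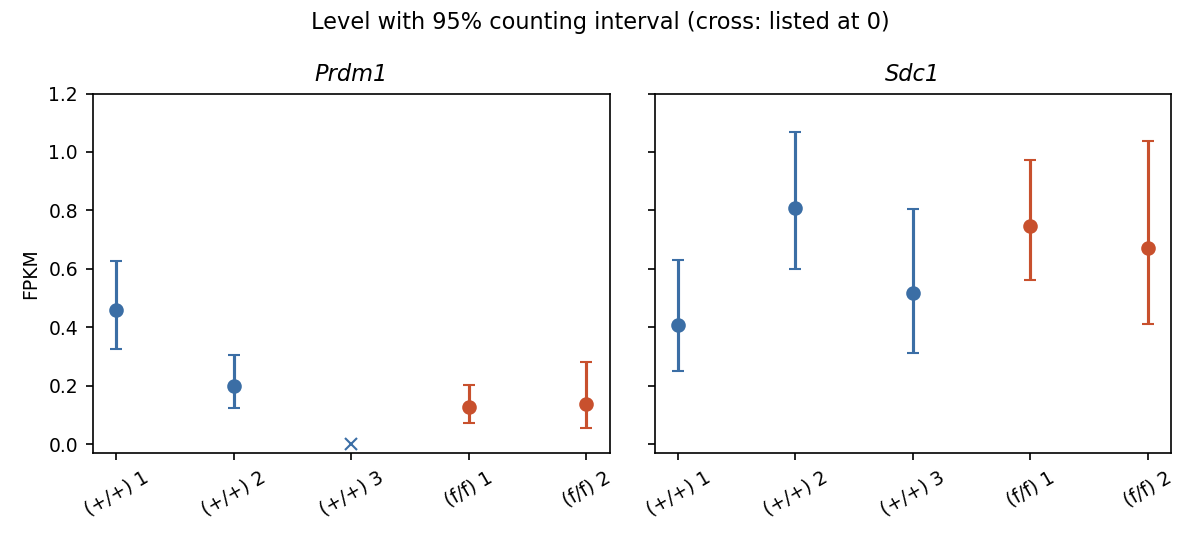
FPKM of Prdm1 and Sdc1 in each library with exact 95% Poisson intervals from the recovered fragment numbers (blue Csk(+/+), red Csk(f/f), cross for a value listed at 0). Prdm1 is highest in Csk(+/+) replicate 1, at 0.458 FPKM, and the 5 Sdc1 intervals overlap between 0.598 and 0.628 FPKM.

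Igj encodes the J chain, which joins polymeric IgM and IgA. Its level was 128, 119 and 157 FPKM in Csk(+/+) and 91.1 and 79.5 in Csk(f/f). Every Csk(f/f) library lay under every Csk(+/+) library. The log2 difference was -0.64 ± 0.16 (SE), with 95% limits of -1.004 and -0.28, or a fold of 0.641 (limma adjusted p = 0.154). Igj had the lowest GC content of the 10 transcripts (39.3%), and genes within 1 percentage point of it had a median difference of -0.50. The GC correction left a difference of -0.14 ± 0.14 (adjusted p = 0.825). Without Csk(+/+) replicate 3 Igj passed as lower, at -0.53 (adjusted p = 0.0490), a setting in which 2.79% of all genes passed as lower. With that library left out and the GC correction applied, the difference was -0.04 (adjusted p = 0.844).

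Mzb1 encodes an ER chaperone that helps immunoglobulin assembly and is also made by marginal zone B cells. Its level was 383, 411 and 653 FPKM in Csk(+/+) and 543 and 480 in Csk(f/f). Csk(+/+) replicate 3 was the highest of all and the other Csk(+/+) libraries were the lowest, so the groups overlapped. The log2 difference was 0.12 ± 0.24 (SE), with 95% limits of -0.43 and 0.68, or a fold of 1.09 (limma adjusted p = 0.770). Its sign turned under the GC correction (-0.062) and on leaving out Csk(+/+) replicate 1 (-0.021). Without Csk(+/+) replicate 3 it was 0.36 (adjusted p = 0.0763), and with the GC correction as well it was 0.22 (limma adjusted p = 0.341).

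Fkbp11, which encodes an ER peptidyl-prolyl isomerase of secretory cells, had 0.435 and 0.353 FPKM in Csk(+/+) replicates 1 and 2 and 0.538 in Csk(f/f) replicate 2, and was listed at 0 in the other 2 libraries. These values stood for 4, 4 and 3 fragments. A difference between the genotypes was not detectable at this depth.

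Among surface proteins, Sdc1 encodes syndecan-1 (CD138), the marker by which plasma cells are sorted. Its level was 0.407, 0.808 and 0.516 FPKM in Csk(+/+) and 0.746 and 0.671 in Csk(f/f). The Csk(f/f) values lay inside the Csk(+/+) range. They stood for 20, 49 and 19 fragments in Csk(+/+) and 55 and 20 in Csk(f/f), and all 5 Poisson intervals overlapped.

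Tnfrsf17 encodes BCMA, the receptor through which APRIL keeps plasma cells alive. It was 0.286 FPKM in Csk(+/+) replicate 1 and 0.0772 in replicate 2, for 3 fragments and 1, and was listed at 0 in the other 3 libraries. Cd28, a costimulatory receptor of T cells that plasma cells also carry, was 0.0423 and 0.0343 FPKM in the same libraries and listed at 0 in the rest. Equal values after scaling for depth put Cd28 at the same small number of fragments in both. Of 16 T cell markers 12 stayed under 1 FPKM in all libraries, and Cd3e, Cd3g and Trat1 were listed at 0 in all 5.

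**Figure D3:**
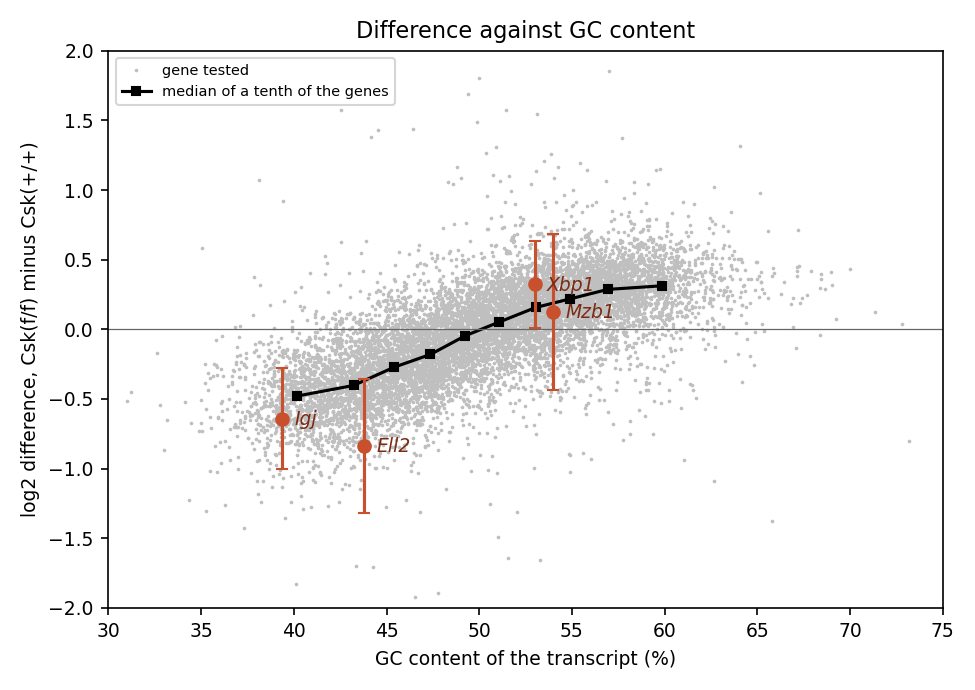
Log2 difference (vertical axis) against the GC content of the transcript in percent (horizontal axis) for each gene tested (grey; genes beyond the axes are not drawn), with the median in each decile of GC content (black squares) and the 4 tested plasma cell genes with 95% limits (red). The median of genes of like GC content is -0.50 at Igj (-0.64) and -0.37 at Ell2 (-0.84).

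**Figure D4:**
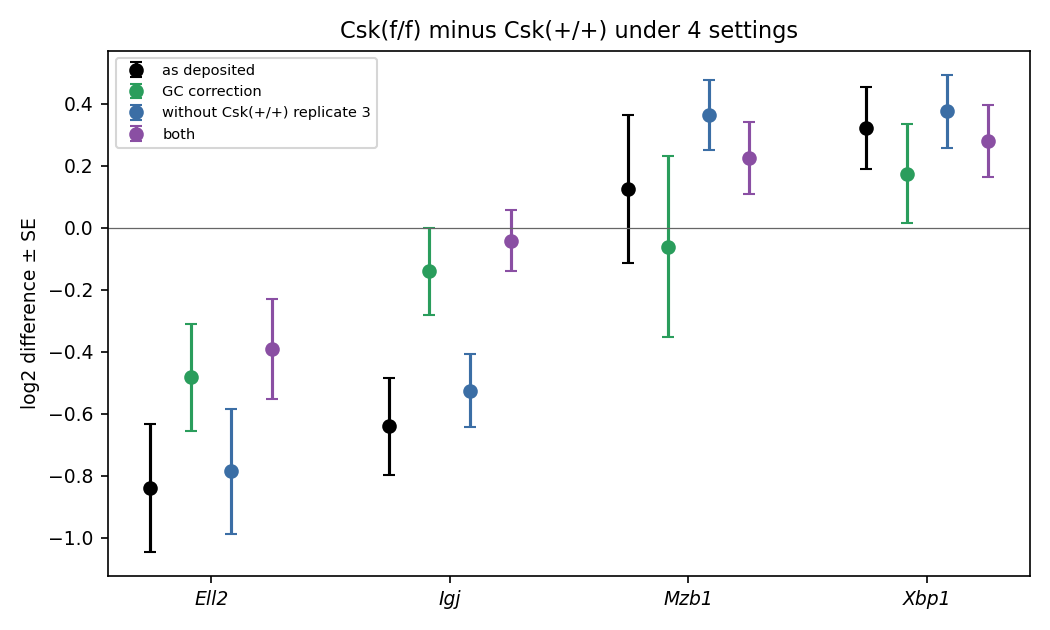
Log2 difference with its SE for Ell2, Igj, Mzb1 and Xbp1 as deposited, with the GC correction, without Csk(+/+) replicate 3 and with both changes. Ell2 stays below 0 and Xbp1 above 0 in these 4 settings, Igj moves from -0.64 to -0.04, and Mzb1 takes either sign.

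Other genes of the plasma cell programme were described from lists written with earlier results of these data known. None of their members passed over all genes by limma, and the median log2 difference of all tested genes was -0.01. Of 30 further plasma cell genes 23 were tested, 12 with a positive and 11 with a negative difference (median 0.07). With the GC correction 16 were positive and 7 negative (median 0.06). By limma's unadjusted p under 0.05, 2 were higher and 3 lower before the correction (8.07% and 13.6% of all genes), and 4 and 0 after it (4.16% and 4.76% of all genes). Fam46c, which encodes a non-canonical poly(A) polymerase abundant in plasma cells, had 7.76, 7.49 and 5.86 FPKM in Csk(+/+) and 11.1 and 14.1 in Csk(f/f). Its log2 difference was 0.76 as deposited (limma adjusted p = 0.155) and 0.85 with the GC correction. Ly6d had 102, 127 and 131 FPKM in Csk(+/+) and 196 and 173 in Csk(f/f) (log2 difference 0.62, and 0.44 with the correction). Irf4, the transcription factor that acts upstream of Prdm1, had 12.1, 13.1 and 7.20 FPKM in Csk(+/+) and 13.2 and 17.3 in Csk(f/f) (log2 difference 0.49, limma adjusted p = 0.303, and 0.64 with the correction). Its Csk(f/f) values lay above all Csk(+/+) values, by little in replicate 1.

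Transcription factors that hold B cell identity against Prdm1 included Pax5, Bcl6 and Bach2, each above 13 FPKM in every library. Of 14 genes in this list 12 were tested, 6 with a positive and 6 with a negative difference (median -0.05, and 0.06 with the GC correction). Pax5 had 132, 150 and 98.4 FPKM in Csk(+/+) and 101 and 123 in Csk(f/f), and the groups overlapped. Bcl6, the germinal centre repressor that blocks Prdm1, had 81.7, 75.2 and 60.1 FPKM in Csk(+/+) and 55.6 and 59.2 in Csk(f/f), all Csk(f/f) values lying below (log2 difference -0.32, limma adjusted p = 0.274, and -0.39 with the correction). Bach2 had 25.4, 23.7 and 13.8 FPKM in Csk(+/+) and 18.4 and 19.0 in Csk(f/f), again overlapping. Ets1, which restrains plasma cell formation, had 87.4, 93.6 and 62.2 FPKM against 58.3 and 59.4 (log2 difference -0.43, limma adjusted p = 0.230, and -0.26 with the correction). Nfkbid, counted among the positive genes of the list, encodes an IkB protein and not such a transcription factor. It had 17.3, 22.5 and 15.4 FPKM against 33.3 and 33.8 (log2 difference 0.85, limma adjusted p = 0.154, and 0.57 with the correction).

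In the list of ER translocation, glycosylation and vesicle transport, 48 of 49 genes were tested, 24 with a positive and 24 with a negative difference (median 0.00, and 0.07 with the GC correction). By limma's unadjusted p under 0.05, 6 were higher and 8 lower before the correction (all genes 8.07% and 13.6%), and 3 and 0 after it (all genes 4.16% and 4.76%). Srp54a and Srp19, which encode parts of the signal recognition particle, had the smallest p. Srp19 had 45.2, 34.8 and 47.9 FPKM in Csk(+/+) and 25.1 and 28.8 in Csk(f/f), a log2 difference of -0.63 that became -0.25 with the correction. Of 17 genes of the unfolded protein response 14 were tested (median -0.10, and 0.00 with the correction), of which 1 was higher and 4 were lower by the unadjusted p (all genes 8.07% and 13.6%), and 0 were either after the correction (all genes 4.16% and 4.76%). Hspa5, which encodes the ER chaperone BiP, had 236, 199 and 194 FPKM in Csk(+/+) and 160 and 137 in Csk(f/f) (log2 difference -0.50, and -0.23 with the correction). Atf6b had 54.4, 57.9 and 40.3 FPKM against 72.5 and 75.3 (log2 difference 0.55, and 0.22 with the correction).

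Partners of Ell2 in transcription elongation had a median log2 difference of -0.19 over 14 tested genes (5 positive, 9 negative) and of 0.01 with the GC correction (7 and 7). Eaf2, which encodes an ELL-associated factor, had 62.0, 55.9 and 73.4 FPKM in Csk(+/+) and 50.7 and 46.9 in Csk(f/f), and its log2 difference went from -0.37 to 0.05 with the correction. Mllt1 had 20.3, 22.0 and 15.2 FPKM against 27.8 and 29.3 (log2 difference 0.57, and 0.25 with the correction). Tnfrsf13b and Tnfrsf13c, which encode TACI and the BAFF receptor, the relatives of BCMA on B cells, were well above Tnfrsf17. Tnfrsf13c had 249, 201 and 130 FPKM in Csk(+/+) and 125 and 173 in Csk(f/f), and Tnfrsf13b had 26.9, 31.9 and 24.5 against 22.8 and 24.6. Both overlapped between groups. They and Mcl1, the other tested gene of the BAFF and APRIL list, had negative differences (median -0.21, and -0.23 with the correction). Among all 10242 genes tested 5251 were negative. Cd86, a ligand of CD28, had 80.5, 73.2 and 76.0 FPKM in Csk(+/+) and 63.4 and 56.9 in Csk(f/f) (log2 difference -0.34, and 0.04 with the correction), and Cd80, the other ligand, stayed between 0.703 and 1.36 FPKM.

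Of 9 genes of the syndecan family and heparan sulphate synthesis 7 were tested, 6 with a positive difference (median 0.41, and 0.26 with the GC correction, when all 7 were positive). Among all genes 48.7% were positive, and with the correction 5091 were positive and 5028 negative. By limma's unadjusted p under 0.05, 4 were higher and 0 lower (all genes 8.07% and 13.6%). After the correction 2 were higher and 0 lower (all genes 4.16% and 4.76%). Sdc4, which encodes syndecan-4, had 3.63, 4.71 and 4.85 FPKM in Csk(+/+) and 8.68 and 7.61 in Csk(f/f). Its log2 difference was 0.77 ± 0.20 (SE, limma adjusted p = 0.155), and 0.82 with the correction. Ext2, a heparan sulphate polymerase gene, had 13.1, 14.3 and 13.6 FPKM against 17.9 and 18.9 (log2 difference 0.41, and 0.17 with the correction). Of 13 immunoglobulin names only Pigr matched a row, at 0.214 to 0.330 FPKM, and immunoglobulin constant genes were not analysed here.

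**Figure D5:**
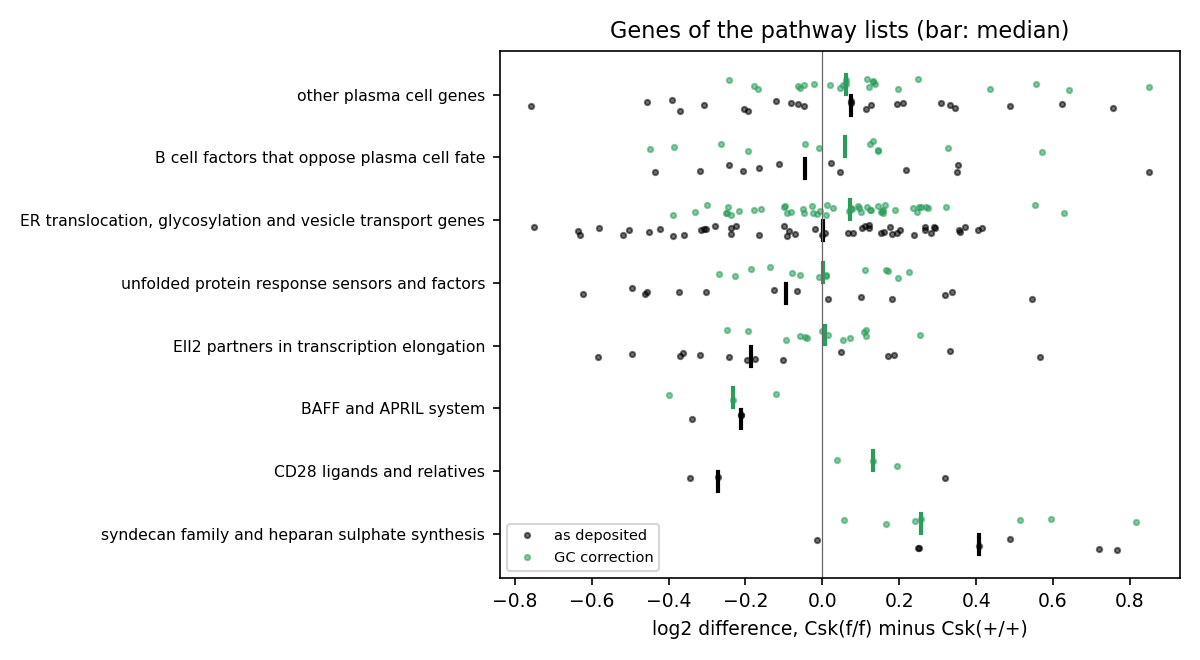
Log2 difference of each tested gene (points) in 8 lists around the plasma cell programme, as deposited (black) and with the GC correction (green), with bars for the medians. Medians lie near 0 in the largest list, at 0.00 and 0.07, and farthest above 0 in the syndecan and heparan sulphate list, at 0.41 and 0.26.

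Genes most like Xbp1, Igj, Prdm1 and Sdc1 over the 5 libraries were found by the root mean square distance between log2(FPKM + 1) values centred on each gene's mean. The candidates were 9159 tested genes, after leaving out clone-type and predicted names, small RNAs, and immunoglobulin and receptor segments. For Xbp1 these were Tusc2, Exoc7 and Tmem143, at distances of 0.029, 0.030 and 0.035, where the median gene lay at 0.303. For Igj they were Fam167b, Stap1 and Zfp51, at 0.028, 0.035 and 0.042, with a median of 0.406. Stap1, which encodes a B cell adaptor, had 70.8, 66.1 and 88.0 FPKM in Csk(+/+) and 52.2 and 42.1 in Csk(f/f). Fam167b, Stap1 and Zfp51 all had the same order of libraries as Igj, a likeness for which they were picked. Stap1 and Zfp51 had a GC content of 38.0% and 38.5%, near that of Igj (39.3%). Their log2 differences went from -0.65 and -0.69 to -0.12 and -0.17 with the GC correction. Fam167b (55.8%) went from -0.61 to -0.86. Tusc2, Exoc7 and Tmem143 went from 0.35, 0.33 and 0.39 to 0.12, 0.09 and 0.10. For Prdm1 the nearest genes were Prepl, Abhd13 and Edem1, and for Sdc1 Kctd20, Dnajb1 and Rftn2, at distances of 0.020 to 0.033. Prdm1 and Sdc1 lie under 1 FPKM, where the log2(FPKM + 1) scale moves little.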

How the data were processed

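Gene expression was measured by RNA sequencing of sorted cells. The authors deposited FPKM values, 1 column for each of 5 libraries, made with TopHat2 2.0.8 and Cufflinks 2.1.1 on build mm9 per the submitters' processing notes. The annotation and any scaling between libraries are not given in the sources used here, and 1 line without numbers was left out. The members, lists, tests and alternatives were chosen with earlier results of these data known.

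Genes with at least 1 FPKM in at least 2 libraries were tested with limma 3.58.1 in R 4.3.3 on log2(FPKM + 1), using a mean-variance trend and Benjamini-Hochberg adjusted p-values over all 10242 genes. The pipeline was tested on simulated data. GC content came from the longest protein-coding GENCODE M21 transcript, or else the longest transcript (GRCm38), matched by name or RefSeq synonym for 10119 tested genes. For the GC correction, each library's values were centred on the gene means, and a lowess curve against GC content (span 0.3) was subtracted. Alternatives were another pseudocount, filter, scaling or variance prior, a replicate block, and each library left out. No mm9 coordinates were used. Promoters are RefSeq's on GRCm38.p6, and 8 of the 10 genes had an entry.

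Depth was taken from the most common ratio between low values of a gene in 2 libraries, and from the lowest step of FPKM times length. Fragment numbers of genes under 1 FPKM are the lowest whole numbers that fit all libraries within 0.05, and are given as such only where they lay within 1.5 times of FPKM times transcript length times depth.

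Named were all 10 genes. From each list came up to 4 members past the threshold or, with none, the 2 of smallest p, plus Irf4, Pax5, Bcl6 and Bach2, and for 4 genes the 3 nearest in pattern. Marker lists covered B and germinal centre, light zone, dark zone, T, macrophage, neutrophil, dendritic, and erythroid and platelet cells. Their summed FPKM, given as Csk(+/+) then Csk(f/f) ranges, were 64.1 to 79.8 and 71.5 to 83.5 for T (mostly Cd2) and 17.0 to 22.3 and 18.2 to 24.0 for dendritic markers. Neutrophil markers summed to at most 2.71.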

Additional observations from a re-analysis of the deposited data

How the results depend on the processing

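The signs of the Xbp1, Igj and Ell2 differences held under all alternatives run, and that of Mzb1 turned with the GC correction (-0.062), leaving 1 positive gene of 4 in place of 2. Leaving out each library in turn gave log2 differences of -1.10 to -0.58 for Ell2, -0.74 to -0.53 for Igj, 0.22 to 0.42 for Xbp1 and -0.021 to 0.36 for Mzb1, with 1 to 2 positive genes, 0 to 1 genes of the set called (Igj, without Csk(+/+) replicate 3), and 0 to 128 genes called higher and 5 to 283 called lower over the table. With both Csk(+/+) replicate 3 left out and the GC correction, 20 genes were called higher and 24 lower. Without a filter on low values 2 genes were called lower in place of 4. The replicate numbers that the groups share were not taken to pair libraries, since they are only numbers in the titles. The deviations of the 2 pairs correlated at -0.13 and 0.11. Deviations of 2 Csk(f/f) libraries from their mean are mirror images, so these values cannot decide on pairing. With the number as a replicate block 110 genes were called higher and 382 lower, with 1 gene of the set called (Igj, -0.53, limma adjusted p = 0.0488), and with the replicate block and the GC correction 47 and 51. A block leaves Csk(+/+) replicate 3 without a partner, so its log2 differences equal those without that library. Where 1 Csk(f/f) library is left out, the other is assumed to vary like Csk(+/+). Recovered fragment numbers limit the 6 genes under 1 FPKM.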
